A study of Vitis vinifera and Vitis quinquangularis with 24 samples.

Results

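Sugar transporters and vacuolar invertases were followed through ripening in the berry skin of 2 grapes. The genes were taken from a list of 10 identifiers with their roles: 4 hexose transporters (HT1, HT3, HT5 and HT6), 3 sucrose transporters, SWEET10 and 2 invertases. The deposited tables hold 27711 gene models, and 9 of the 10 identifiers are among them. The sucrose transporter VIT_01s0026g01960 was not analysed here. All 9 were among the 18375 models that passed the filter on low counts, and all 9 are described.

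Ripening berries receive sucrose through the phloem and store glucose and fructose in the vacuole. Acid invertases of the vacuole split sucrose into those hexoses. Sucrose transporters carry sucrose across membranes together with protons. Hexose transporters of the plasma membrane do the same for glucose and its relatives, and SWEET proteins let sugar pass down its gradient. In grape, HT1 and HT5 are known as hexose transporters of the plasma membrane. HT6, which RefSeq also lists as TMT1, belongs to the transporters of the vacuolar membrane.

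The 8 groups, of 3 libraries each, were berry skin of Vitis vinifera cv. Cabernet Sauvignon and of Vitis quinquangularis accession Danfeng-2 at 4 stages of the Eichhorn-Lorenz (E-L) scale. On that scale berries at E-L 33 are still hard and green, soften from E-L 34, colour from E-L 35 and are ripe at E-L 38. The labels name no treatment, no age and no transgene. Each species was represented by 1 cultivar or accession, so a difference between the species cannot be told apart from one between these 2 grapes. Nor can it be told apart from how well the reads of each aligned to 1 common set of gene models. Whether the 3 libraries of each group came from separate vines is not stated, so the p-values cover only the spread among these libraries, and that spread may be technical.

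Total counts per library ran from 13201295 to 23095568. Partner libraries of a group correlated at 0.995 to 0.998 across log2 levels in 18 of 24 pairs. The other 6 pairs, at 0.941 to 0.973, each held 1 of 3 libraries. These were replicate 3 of Cabernet Sauvignon at E-L 34 and, from Danfeng-2, replicate 1 at both E-L 33 and E-L 35. The cause of this was not tested, and results that rest on these libraries are given with and without them. Because identifiers come without gene names in the files, skin markers and other genes of sugar metabolism were not analysed here. The RefSeq names HT5 and HT6 and the synonym HT3 lie on chromosomes 5, 18 and 11, as the listed identifiers do in the files. Coordinates are those of the files, whose genome build was not named in the sources used here.

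Levels are given as CPM, the count of a gene relative to the total of its library after scaling by the TMM method, and differences as log2 fold changes ± standard error. A difference was called when the Benjamini-Hochberg adjusted p over all 18375 models was below 0.05 in edgeR's quasi-likelihood test and the change was at least 2-fold. The words rose and fell are kept for called differences. In these bulk samples, fewer cells of a type and less RNA per cell cannot be told apart.

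**Figure D1:**
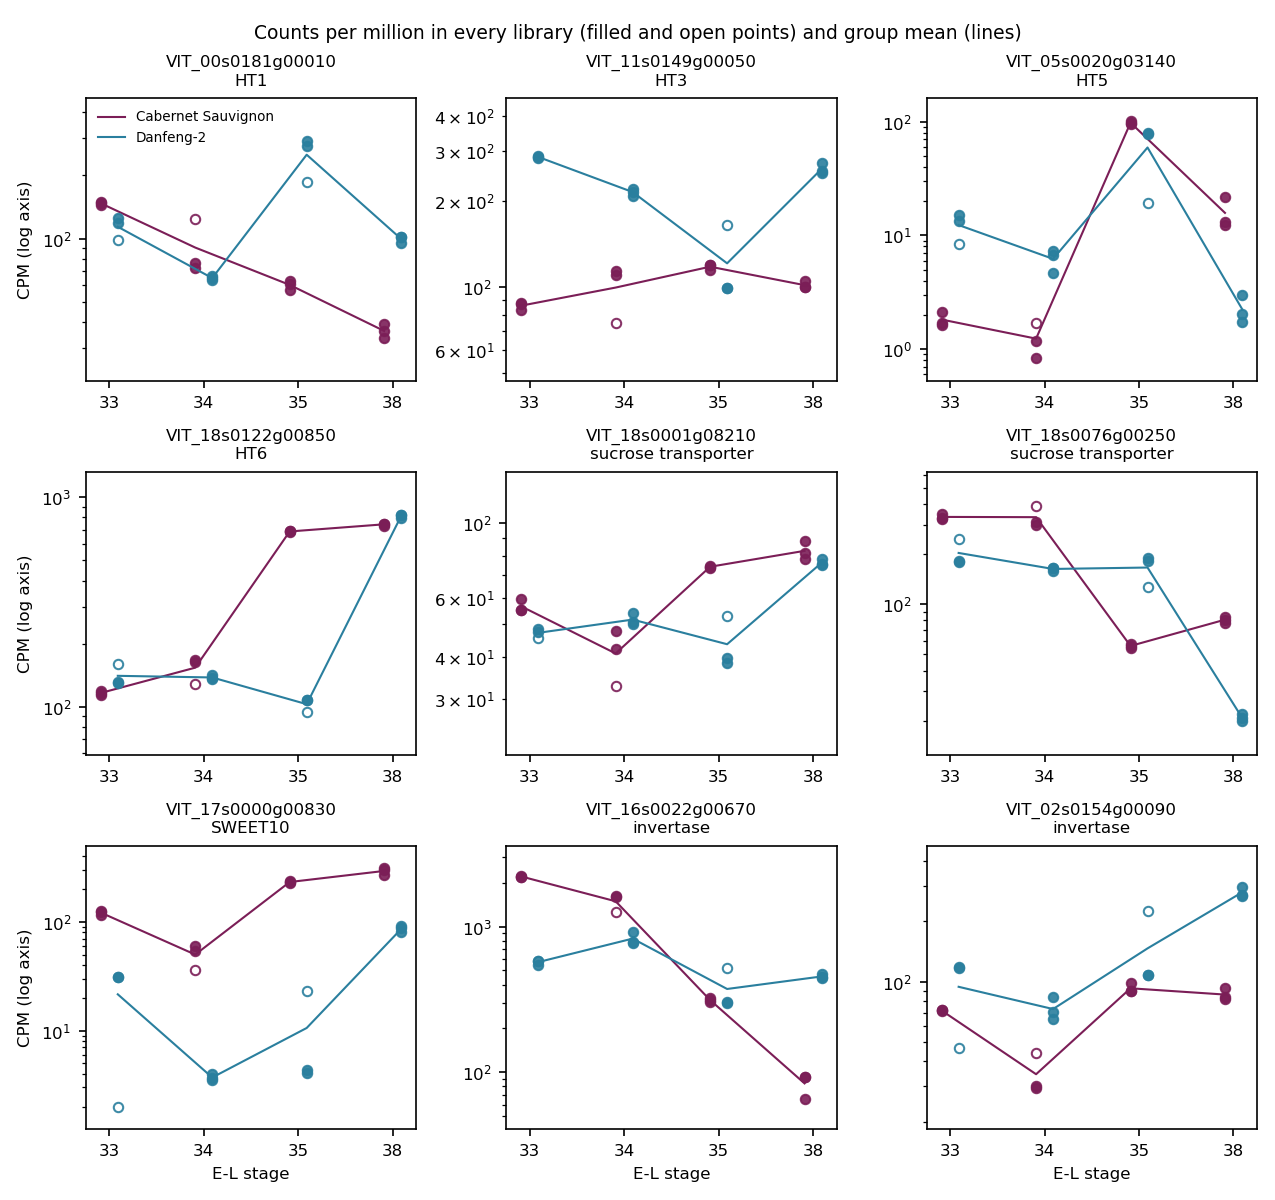
Level of each gene in CPM (log axis) against the E-L stage; points are libraries, lines join group means, and open points are the 3 libraries that stood apart from their partners. HT6 reached its high level by E-L 35 in Cabernet Sauvignon and by E-L 38 in Danfeng-2, while the invertase VIT_16s0022g00670 ended at 83.9 CPM in the former and 454.5 CPM in the latter.

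HT6, the hexose transporter assigned to the vacuolar membrane, rose in both grapes, but between different stages. It is VIT_18s0122g00850, on the plus strand of chromosome 18 from 613412 to 619109, with a model length of 2937 bp. In Cabernet Sauvignon its level was 114.4, 116.1 and 118.8 CPM at E-L 33 followed by 168.1, 163.9 and 129.2 CPM at E-L 34. It then reached 686.5, 688.9 and 681.3 CPM at E-L 35, with a further 3 values of 746.7, 748 and 730.3 CPM at E-L 38. In Danfeng-2 it was 160.6, 130.4 and 130.7 CPM at E-L 33, then 136, 141.3 and 136.9 CPM at E-L 34, later 94.1, 107.5 and 107.3 CPM at E-L 35, before 817.8, 823.2 and 794.9 CPM at E-L 38. The high groups were thus both stages from E-L 35 in Cabernet Sauvignon and E-L 38 alone in Danfeng-2, and none of their libraries overlapped with those of any other group.

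The rise of HT6 from E-L 34 to E-L 35 in Cabernet Sauvignon was 4.46-fold (2.16 ± 0.10, adjusted p = 1e-12). In Danfeng-2 the same step gave -0.42 ± 0.10, which did not reach 2-fold (95% interval -0.62 to -0.22, adjusted p = 0.0028). Danfeng-2 made its rise in the next step, 7.88-fold from E-L 35 to E-L 38 (2.98 ± 0.10, adjusted p = 7e-14). HT6 was therefore 6.66-fold lower in Danfeng-2 than in Cabernet Sauvignon at E-L 35 (-2.73 ± 0.10, adjusted p = 5.2e-14), with no overlap between the libraries. The differences between the grapes were small at the other stages: the log2 values were 0.27 for E-L 33, -0.15 for E-L 34 and 0.13 for E-L 38, the last with a 95% interval of -0.07 to 0.33. Between E-L 33 and E-L 38, the whole span, the gene rose 6.37-fold in Cabernet Sauvignon and 5.78-fold in Danfeng-2, and the difference between these changes was -0.14 (95% interval -0.42 to 0.14, adjusted p = 0.41).

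HT1, a plasma membrane hexose transporter, fell in Cabernet Sauvignon and peaked at E-L 35 in Danfeng-2. It is VIT_00s0181g00010, on the minus strand of unplaced sequence (Un) from 7629430 to 7632499, 2017 bp long. Cabernet Sauvignon libraries held 149.1, 148 and 144.8 CPM at E-L 33, then 76.4, 72.1 and 123.5 CPM at E-L 34, later 57, 62.9 and 60.8 CPM at E-L 35, ending with 36.5, 33.5 and 39.1 CPM at E-L 38. Danfeng-2 libraries held 98, 125.3 and 118.3 CPM at E-L 33, then 64.9, 66.2 and 63.6 CPM at E-L 34, later 185.1, 291.5 and 275.8 CPM at E-L 35, ending with 95.3, 102 and 101.7 CPM at E-L 38. The 3 Danfeng-2 libraries of E-L 35 were above all libraries of the other 7 groups, and the 3 Cabernet Sauvignon libraries of E-L 38 were below all others.

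From E-L 33 to E-L 38 HT1 fell 4.05-fold in Cabernet Sauvignon (-2.02 ± 0.18, adjusted p = 5.5e-09). No single step of that decline reached 2-fold, the steps being -0.70, -0.59 and -0.73 on the log2 scale. The size of the first 2 steps depended on Cabernet Sauvignon E-L 34 replicate 3, which stood apart. Without it the mean of that group was 74.2 CPM instead of 90.7 CPM. Beside 147.3 CPM in the stage before and 60.2 CPM in the stage after, the lower mean puts more of the decline in the first step. In Danfeng-2 HT1 rose 3.86-fold from E-L 34 to E-L 35 (1.95 ± 0.17, adjusted p = 2.2e-07) and fell 2.52-fold from there to E-L 38 (-1.33 ± 0.17, adjusted p = 2.4e-06). Its net change in Danfeng-2 over the whole span was -0.19 (95% interval -0.54 to 0.16, adjusted p = 0.34). At E-L 35 the gene was 4.16-fold higher in Danfeng-2 than in Cabernet Sauvignon (2.06 ± 0.17, adjusted p = 5.8e-09), and at E-L 38 it was 2.74-fold higher (1.45 ± 0.17, adjusted p = 7e-07). At E-L 33 and E-L 34 the difference was -0.37 and -0.48 and was not called.

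HT5, the other plasma membrane hexose transporter of the list, is known in grape leaves as a gene induced by infection. In both skins it was low at E-L 33 and E-L 34, rose at E-L 35 and fell again by E-L 38. It is VIT_05s0020g03140, on the minus strand of chromosome 5 from 4868700 to 4873463, 1808 bp long. In Cabernet Sauvignon it was read at 1.64, 1.69 and 2.12 CPM at E-L 33 against 0.831, 1.17 and 1.7 CPM at E-L 34. The 3 libraries of E-L 35 then held 101.2, 98.6 and 95.2 CPM, and those of E-L 38 held 13.2, 12.3 and 21.9 CPM. Danfeng-2 libraries held 8.33, 15.2 and 13.5 CPM at E-L 33, then 4.7, 7.28 and 6.67 CPM at E-L 34, later 19.4, 80.6 and 78.4 CPM at E-L 35, ending with 2.03, 3.01 and 1.73 CPM at E-L 38. Replicate 1 of Danfeng-2 E-L 35, 1 of the 3 libraries that stood apart, lay well below its partners, and without it the group mean was 79.5 CPM instead of 59.5 CPM.

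The step from E-L 34 to E-L 35 raised HT5 79.2-fold in Cabernet Sauvignon (6.31 ± 0.48, adjusted p = 1.3e-09) and 9.55-fold in Danfeng-2 (3.26 ± 0.40, adjusted p = 9.5e-06). The following step to E-L 38 lowered it 6.22-fold in Cabernet Sauvignon (-2.64 ± 0.38, adjusted p = 3.7e-05) and 26.3-fold in Danfeng-2 (-4.72 ± 0.45, adjusted p = 6.3e-08). The gene therefore ended above its E-L 33 level in Cabernet Sauvignon, 8.68-fold (3.12 ± 0.45, adjusted p = 4.7e-06), and below it in Danfeng-2, 5.48-fold (-2.45 ± 0.44, adjusted p = 9.7e-05). Danfeng-2 was higher than Cabernet Sauvignon at E-L 33 (2.77 ± 0.44, adjusted p = 3.1e-05) and at E-L 34 (2.33 ± 0.46, adjusted p = 0.00029), and lower at E-L 38 (-2.81 ± 0.45, adjusted p = 2.3e-05). At E-L 35 the difference of -0.73 was not called (95% interval -1.47 to 0.02, adjusted p = 0.085). With 6 libraries left out in turn, it ran from -1.01 to -0.31. It was called only without Danfeng-2 E-L 35 replicate 2 (-1.01, adjusted p = 0.038), which lay close to replicate 3. Leaving out replicate 1, which stood apart, brought the Danfeng-2 mean to 79.5 CPM, nearer to the Cabernet Sauvignon mean of 98.4 CPM. The step from E-L 33 to E-L 34 in Danfeng-2 was not called (-0.99, adjusted p = 0.079), but was called at -1.20 without Danfeng-2 E-L 33 replicate 1 (adjusted p = 0.04).

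HT3, which RefSeq lists as HT7 with HT3 as a synonym, is a further hexose transporter. It was higher in Danfeng-2 at every stage but E-L 35 and stayed within a narrow range in Cabernet Sauvignon. It is VIT_11s0149g00050, on the plus strand of chromosome 11 from 6734790 to 6739241, 2253 bp long. The 12 Cabernet Sauvignon libraries ran from 74.6 to 119.4 CPM, with group means of 86, 99.6, 117.9 and 101.5 CPM from E-L 33 to E-L 38, and no step or span was called there. Danfeng-2 libraries held 286.2, 288.3 and 285 CPM at E-L 33, then 221.7, 209.7 and 215.6 CPM at E-L 34, later 164.9, 99.3 and 99.2 CPM at E-L 35, ending with 251.5, 272.5 and 256 CPM at E-L 38. The Danfeng-2 libraries of E-L 33, E-L 34 and E-L 38 lay above all Cabernet Sauvignon libraries, and those of E-L 35 overlapped with them.

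At E-L 33 HT3 was 3.33-fold higher in Danfeng-2 (1.74 ± 0.16, adjusted p = 3.2e-08), and at E-L 38 it was 2.56-fold higher (1.36 ± 0.16, adjusted p = 5e-07). The difference of 2.17-fold at E-L 34 (1.11 ± 0.16, adjusted p = 6.8e-06) fell under 2-fold, to 0.92, without Cabernet Sauvignon E-L 34 replicate 3. At E-L 35 the difference was 0.04 (95% interval -0.28 to 0.36). Within Danfeng-2, the step between E-L 34 and E-L 35 gave -0.83 ± 0.16 and was not called, but it was called at -1.12 without Danfeng-2 E-L 35 replicate 1 (adjusted p = 7.8e-07). The rise from E-L 35 to E-L 38 in Danfeng-2 (1.10 ± 0.16, adjusted p = 8.6e-06) fell under 2-fold, to 0.97, without replicate 2 or replicate 3 of Danfeng-2 E-L 35. It stayed called without replicate 1, which stood apart, and ran from 0.97 to 1.39 over the 6 libraries left out in turn.

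The sucrose transporter VIT_18s0076g00250 fell in both grapes, by E-L 35 in Cabernet Sauvignon and by E-L 38 in Danfeng-2. It lies on the minus strand of chromosome 18 from 15923548 to 15925983 and is 1835 bp long. In Cabernet Sauvignon it was at 346.2, 327.1 and 330.1 CPM at E-L 33, then 298.6, 312.4 and 388.8 CPM at E-L 34, later 57.4, 56.6 and 54.8 CPM at E-L 35, ending with 77.7, 80.7 and 84.2 CPM at E-L 38. In Danfeng-2 it was at 248.2, 179.8 and 181.8 CPM at E-L 33, then 164.3, 159.1 and 165.5 CPM at E-L 34, later 127.8, 189.9 and 180.9 CPM at E-L 35, ending with 19.9, 22.1 and 20.8 CPM at E-L 38. The Danfeng-2 groups of E-L 33 to E-L 35 followed each other closely and overlapped in order of level, and the E-L 38 group stood below every other group of either grape.

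In Cabernet Sauvignon the gene fell 5.92-fold from E-L 34 to E-L 35 (-2.57 ± 0.14, adjusted p = 1.5e-11), and its change in Danfeng-2 in that step was 0.03 (95% interval -0.25 to 0.31). In Danfeng-2 it fell 7.94-fold from E-L 35 to E-L 38 (-2.99 ± 0.15, adjusted p = 6.1e-12), where Cabernet Sauvignon gave 0.52 ± 0.14, under 2-fold. The falls came at different steps, and the sign of the difference between the grapes turned at E-L 35 and again at E-L 38. The difference was -0.72 at E-L 33, under 2-fold. Danfeng-2 was 2.95-fold higher at E-L 35 (1.56 ± 0.14, adjusted p = 1e-08) and 3.86-fold lower at E-L 38 (-1.95 ± 0.14, adjusted p = 9.3e-10). At E-L 34 it was 2.05-fold lower (-1.03 ± 0.13, adjusted p = 3e-06), which became -0.93, under 2-fold, without Cabernet Sauvignon E-L 34 replicate 3. Over the whole span the gene fell 4.14-fold in Cabernet Sauvignon and 9.71-fold in Danfeng-2.

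The sucrose transporter VIT_18s0001g08210 varied less than any other gene of the list. It lies on the minus strand of chromosome 18 from 6693498 to 6703461 and is 1958 bp long. Its 24 libraries ran from 32.7 to 88.5 CPM, and the highest and lowest group means, 82.6 CPM in Cabernet Sauvignon at E-L 38 and 41 CPM in Cabernet Sauvignon at E-L 34, were 2.02-fold apart. It was called in no comparison of the grapes at a stage and in no step or span within a grape. From E-L 34 to E-L 35 it changed by 0.85 ± 0.12 in Cabernet Sauvignon and by -0.24 ± 0.12 in Danfeng-2, and from E-L 35 to E-L 38 by 0.16 and 0.80. Only the difference between the grapes in the step from E-L 34 to E-L 35 was called (-1.10 ± 0.17, adjusted p = 3.1e-05), and it became -0.89, under 2-fold, without Cabernet Sauvignon E-L 34 replicate 3. The call was also lost in limma, at -0.97 on log2(FPKM + 1) and -0.98 on log2(FPKM + 0.1).

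SWEET10, a sugar facilitator, was lower in Danfeng-2 than in Cabernet Sauvignon at all 4 stages. It is VIT_17s0000g00830, on the plus strand of chromosome 17 from 551030 to 552885, 1114 bp long. Cabernet Sauvignon libraries held 125, 124.4 and 115.4 CPM at E-L 33, then 59.9, 54.2 and 35.9 CPM at E-L 34, later 232.4, 238.9 and 225.5 CPM at E-L 35, ending with 298, 312 and 270.9 CPM at E-L 38. Danfeng-2 libraries held 1.99, 31.4 and 31.3 CPM at E-L 33, then 3.48, 3.64 and 4 CPM at E-L 34, later 23.3, 4.34 and 4.08 CPM at E-L 35, ending with 87, 90.8 and 79.8 CPM at E-L 38. In each stage every Danfeng-2 library was below every Cabernet Sauvignon library. Replicate 1 of Danfeng-2 E-L 33 and of E-L 35 each lay far from its partners, the former below and the latter above, and both are among the 3 libraries that stood apart.

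The deficit of SWEET10 in Danfeng-2 was 5.61-fold at E-L 33 (-2.49 ± 0.61, adjusted p = 0.0019) and 13.5-fold at E-L 34 (-3.75 ± 0.69, adjusted p = 0.00014). It was 22-fold at E-L 35 (-4.46 ± 0.68, adjusted p = 1.2e-05) and 3.42-fold at E-L 38 (-1.77 ± 0.59, adjusted p = 0.015). The value at E-L 33 became -1.95 without Danfeng-2 E-L 33 replicate 1. The value at E-L 35 became -5.78 without Danfeng-2 E-L 35 replicate 1. In Cabernet Sauvignon SWEET10 rose 4.65-fold from E-L 34 to E-L 35 (2.22 ± 0.60, adjusted p = 0.0036). Its changes from E-L 33 to E-L 34 (-1.28, adjusted p = 0.08) and over the whole span (1.27, adjusted p = 0.061) were not called with all libraries. With the 3 libraries that stood apart left out they were called, at -1.07 and 1.20. In Danfeng-2 SWEET10 fell 5.84-fold from E-L 33 to E-L 34 (-2.55 ± 0.67, adjusted p = 0.01), although the libraries of these groups overlapped, and this call was lost in limma on log2(FPKM + 1) (-1.64, adjusted p = 0.082). It rose 8.13-fold from E-L 35 to E-L 38 (3.02 ± 0.64, adjusted p = 0.0006), or by 4.35 on the log2 scale without Danfeng-2 E-L 35 replicate 1. The change of 1.51 from E-L 34 to E-L 35 was not called (95% interval 0.09 to 2.92, adjusted p = 0.11) and was 0.18 without that library.

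The invertase VIT_16s0022g00670 fell 26.3-fold from green to ripe berries in Cabernet Sauvignon, while in Danfeng-2 its change over the same span was not called. It lies on the plus strand of chromosome 16 from 12049399 to 12054207 and is 2696 bp long. Cabernet Sauvignon libraries held 2196.7, 2236.5 and 2188.1 CPM at E-L 33, then 1598, 1615.5 and 1259.2 CPM at E-L 34, later 311.2, 324.4 and 303.3 CPM at E-L 35, ending with 93.3, 93.1 and 65.2 CPM at E-L 38. Danfeng-2 libraries held 578.9, 583.6 and 548.4 CPM at E-L 33, then 924, 788.1 and 768.2 CPM at E-L 34, later 517.5, 302.3 and 299.1 CPM at E-L 35, ending with 447.6, 469.3 and 446.5 CPM at E-L 38. The Cabernet Sauvignon groups were apart from each other at every stage, from the highest 2 groups of the series to the lowest. The Danfeng-2 groups of E-L 35 and E-L 38 overlapped only through E-L 35 replicate 1, a library that stood apart.

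That fall from E-L 33 to E-L 38 was -4.72 ± 0.20 on the log2 scale (adjusted p = 2e-13). Of its steps there, -0.57 from E-L 33 to E-L 34 did not reach 2-fold, while -2.25 ± 0.18 to E-L 35 (adjusted p = 2.4e-09) and -1.90 ± 0.18 to E-L 38 (adjusted p = 2.5e-07) were called. In Danfeng-2 the whole span gave -0.33 (95% interval -0.68 to 0.03, adjusted p = 0.11), and the difference between the 2 spans was 4.39 ± 0.25 (adjusted p = 1.4e-10). Danfeng-2 fell in the step from E-L 34 to E-L 35 only, 2.22-fold (-1.15 ± 0.17, adjusted p = 7.1e-05). Without Danfeng-2 E-L 35 replicate 1, which stood apart, the mean at E-L 35 was 300.7 CPM instead of 373 CPM. The mean at E-L 34 was 826.8 CPM, so the fall was larger without that library. The grapes therefore changed order: Danfeng-2 was 3.87-fold lower at E-L 33 (-1.95 ± 0.18, adjusted p = 2.6e-08) and 5.42-fold higher at E-L 38 (2.44 ± 0.18, adjusted p = 1.1e-09). At E-L 34 and E-L 35 the differences of -0.85 and 0.25, in that order, were not called.

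The invertase VIT_02s0154g00090 rose over the span in Danfeng-2 and returned to near its starting level in Cabernet Sauvignon. It lies on the minus strand of chromosome 2 from 4882119 to 4884794 and is 1843 bp long. Cabernet Sauvignon libraries held 71.6, 71.9 and 72 CPM at E-L 33, then 29.4, 30.3 and 43.9 CPM at E-L 34, later 89.8, 98.1 and 90.4 CPM at E-L 35, ending with 82.3, 83.6 and 93 CPM at E-L 38. Danfeng-2 libraries held 46.5, 118.8 and 117.8 CPM at E-L 33, then 83.6, 70.6 and 65 CPM at E-L 34, later 224.5, 108.3 and 107.6 CPM at E-L 35, ending with 271.4, 298.2 and 268.5 CPM at E-L 38. Replicate 1 lay below its partners in Danfeng-2 E-L 33 and above them in Danfeng-2 E-L 35, and the 3 libraries of Danfeng-2 E-L 38 were above all others of the series.

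Over the whole span this invertase rose 2.96-fold in Danfeng-2 (1.56 ± 0.28, adjusted p = 0.0001), and in Cabernet Sauvignon it changed by 0.27 (95% interval -0.32 to 0.85). Without Danfeng-2 E-L 33 replicate 1, which stood apart, the mean at E-L 33 was 118.3 CPM instead of 94.4 CPM. Beside 279.4 CPM at E-L 38, the rise was then smaller but still called. At E-L 38 the invertase was 3.24-fold higher in Danfeng-2 (1.69 ± 0.29, adjusted p = 4.7e-05). In Cabernet Sauvignon it rose 2.68-fold from E-L 34 to E-L 35 (1.42 ± 0.29, adjusted p = 0.00027). Several smaller calls changed when single libraries were left out. The fall from E-L 33 to E-L 34 in Cabernet Sauvignon (-1.06, adjusted p = 0.0049) was under 2-fold without Cabernet Sauvignon E-L 34 replicate 1 (-0.95) or replicate 2 (-0.97). The higher level in Danfeng-2 at E-L 34 (1.08, adjusted p = 0.0035) was lost without Cabernet Sauvignon E-L 34 replicate 1 (0.98) or replicate 2 (just under 1), and likewise without replicate 1 of the Danfeng-2 group (0.97). Over the 6 libraries left out in turn, the fall ran from -1.25 to -0.95 and the difference at E-L 34 from 0.97 to 1.27. Both calls stood with the 3 libraries that stood apart left out. The rise from E-L 34 to E-L 35 in Danfeng-2 (1.01, adjusted p = 0.012) was lost without replicate 1 of the later stage (0.56) and without replicate 2 (0.98) or replicate 3 (0.93) of the earlier stage, as well as with no filter on low counts and in limma on FPKM. The next step in Danfeng-2, 0.93 with all libraries, was called at 1.37 without Danfeng-2 E-L 35 replicate 1.

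**Figure D2:**
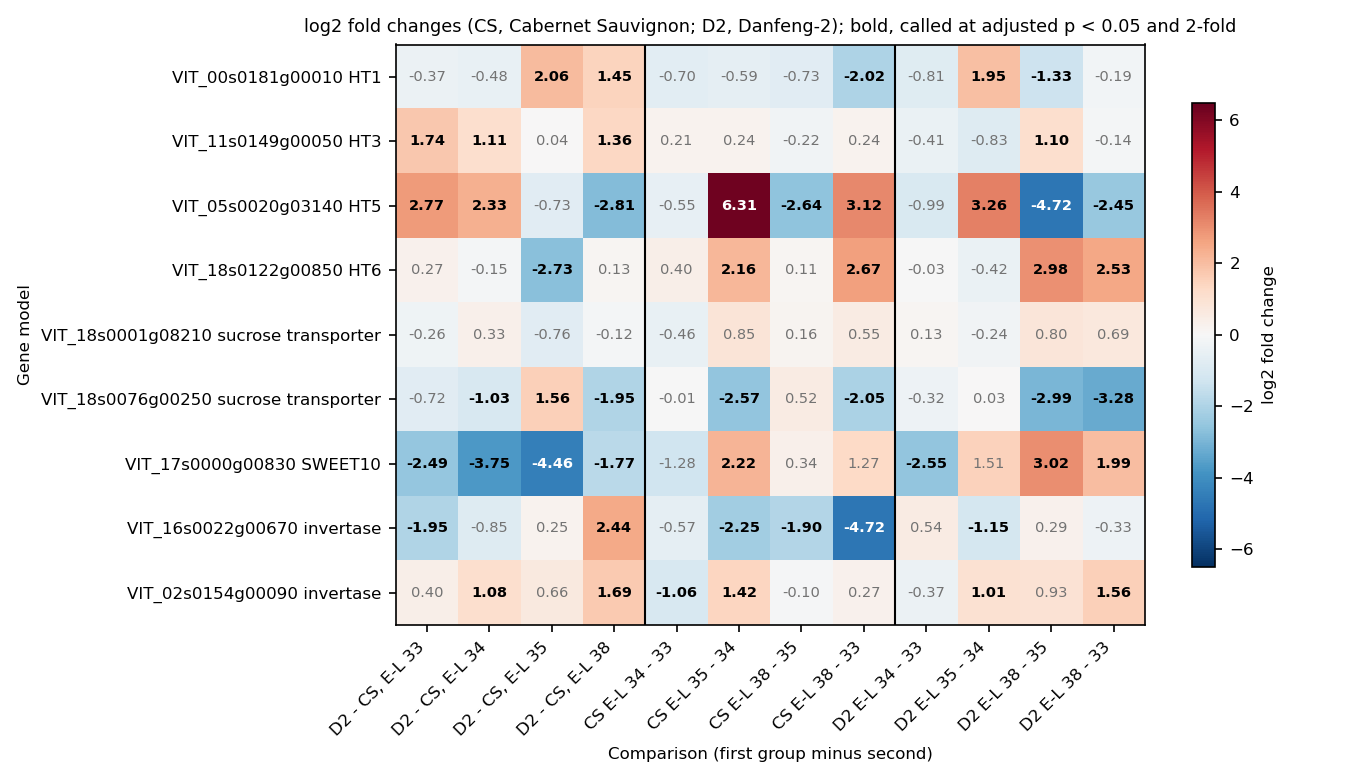
Log2 fold change of each gene (rows) in the 12 comparisons of groups (columns: Danfeng-2 minus Cabernet Sauvignon by stage, then later minus earlier stage within each grape); red is higher, blue is lower, and bold marks called differences. Among the darkest cells are the rise of HT5 from E-L 34 to E-L 35 in Cabernet Sauvignon (6.31) and the falls, each -4.72, of HT5 from E-L 35 to E-L 38 in Danfeng-2 and of VIT_16s0022g00670 over the span in Cabernet Sauvignon.

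The first family of comparisons set both grapes side by side at each stage. At E-L 33, HT3 and HT5 were higher in Danfeng-2, 2 of 9 genes beside 13.5% of all models tested, and SWEET10 and the invertase VIT_16s0022g00670 were lower, 2 of 9 beside 14.6%. At E-L 34, HT3, HT5 and the invertase VIT_02s0154g00090 were higher, 3 of 9 beside 12.8%, and SWEET10 and the sucrose transporter VIT_18s0076g00250 were lower, 2 of 9 beside 14.6%. Without Cabernet Sauvignon E-L 34 replicate 3, 3 of the 9 genes were called at E-L 34 instead of 5. At E-L 35, HT1 and VIT_18s0076g00250 were higher, 2 of 9 beside 17.7%, and HT6 and SWEET10 were lower, 2 of 9 beside 16.7%. The counts of 2 of 9 at these 3 stages are close to the background for so short a list. No count, at these stages or at E-L 38, was tested against the background. At E-L 38, HT1, HT3 and both invertases were higher, 4 of 9 beside 15.3%, and HT5, VIT_18s0076g00250 and SWEET10 were lower, 3 of 9 beside 16.3%.

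The genes did not lean to 1 grape as a group. The median difference over the 9 genes was -0.26, -0.15, 0.04 and 0.13 on the log2 scale from the first stage to the last, beside 0.06, -0.01, 0.02 and -0.03 over all models tested. Within classes the signs were mixed as well: at E-L 38, 2 hexose transporters were higher in Danfeng-2, HT5 was lower and HT6 was not called. SWEET10 alone was called in the same direction at all 4 stages.

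The second family followed each grape through its stages. In Cabernet Sauvignon the step from E-L 33 to E-L 34 raised 0 of the 9 genes, beside 7.42% of all models tested, and lowered 1, the invertase VIT_02s0154g00090, beside 11.6%. In the higher direction, an unadjusted p below 0.05 with the 2-fold minimum also gave 0 in edgeR, as did the calls of DESeq2 and limma, and without the fold minimum the unadjusted p gave 1. The step from E-L 34 to E-L 35 held most of the movement: HT5, HT6, SWEET10 and VIT_02s0154g00090 rose, 4 of 9 beside 14.5%, and VIT_18s0076g00250 and VIT_16s0022g00670 fell, 2 of 9 beside 16.9%. From E-L 35 to E-L 38, 0 of 9 rose in edgeR beside 3.63%, and HT5 and VIT_16s0022g00670 fell, 2 of 9 beside 6.98%. Of the rises, DESeq2 and limma also called 0, and the unadjusted p in edgeR gave 0 at 2-fold and 1 without a fold minimum. Over the whole span HT5 and HT6 rose, 2 of 9 beside 17.8%, and HT1, VIT_18s0076g00250 and VIT_16s0022g00670 fell, 3 of 9 beside 23.2%, which is close to the background. The median change of the 9 genes was -0.55, 0.85, -0.10 and 0.27 in these comparisons, beside 0.01, 0, 0.01 and 0 over all models.

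In Danfeng-2, from E-L 33 to E-L 34, 0 of 9 genes rose in edgeR beside 3.39% of all models tested and SWEET10 fell, 1 of 9 beside 6.92%. Of the rises, DESeq2 and limma also called 0, and the unadjusted p in edgeR gave 0 at 2-fold and 1 without a fold minimum. Without Danfeng-2 E-L 33 replicate 1, 2 genes were called in that step. From E-L 34 to E-L 35, HT1, HT5 and VIT_02s0154g00090 rose, 3 of 9 beside 4.85%, and VIT_16s0022g00670 fell, 1 of 9 beside 4.27%. From E-L 35 to E-L 38, HT3, HT6 and SWEET10 rose, 3 of 9 beside 9.92%, and HT1, HT5 and VIT_18s0076g00250 fell, 3 of 9 beside 14.4%. Over the whole span HT6, SWEET10 and VIT_02s0154g00090 rose, 3 of 9 beside 11.5%, and HT5 and VIT_18s0076g00250 fell, 2 of 9 beside 18.8%. The medians of the 9 genes were -0.37, 0.03, 0.80 and -0.14, beside -0.03, 0.02, -0.07 and -0.05 over all models. Successive steps share the libraries of the stage between them, so a low value at that stage enters both.

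**Figure D3:**
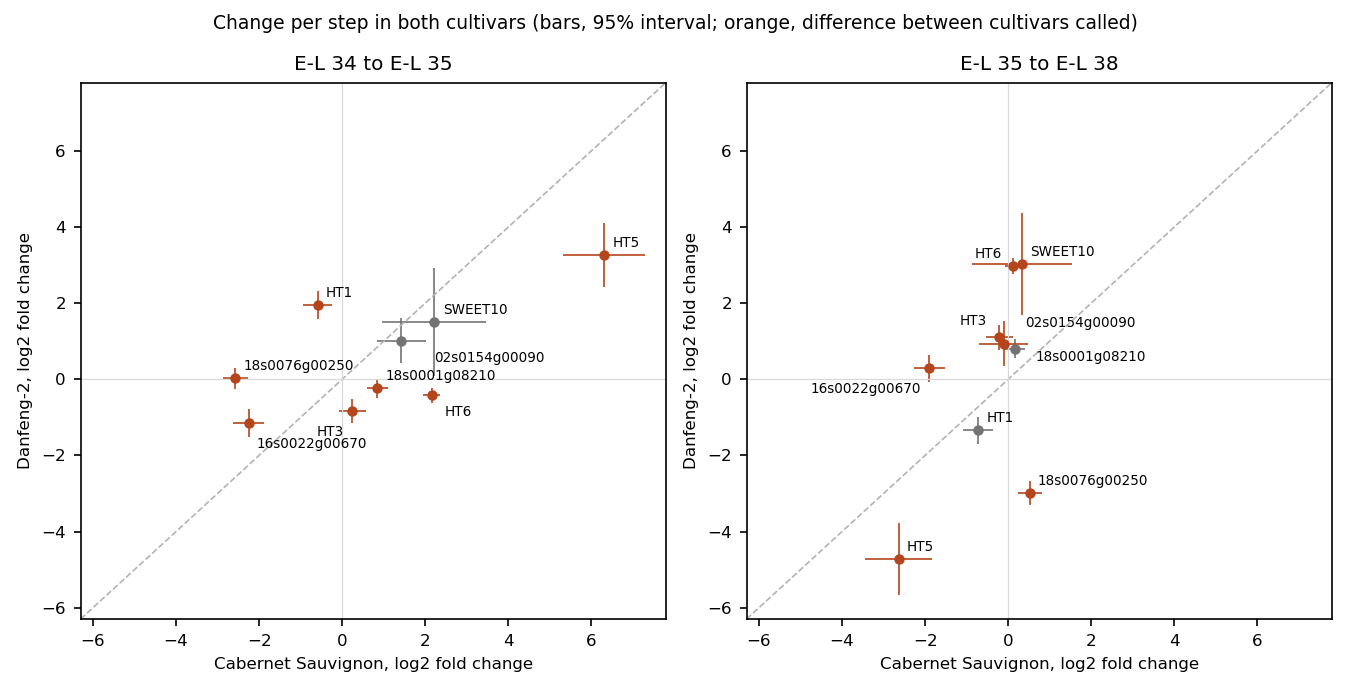
Log2 fold change in Danfeng-2 against that in Cabernet Sauvignon for the steps from E-L 34 to E-L 35 (left) and from E-L 35 to E-L 38 (right); bars are 95% intervals and orange marks genes whose change differed between the grapes by the called test. HT6 lies to the right on the left panel (2.16 against -0.42) and high on the right panel (0.11 against 2.98), and VIT_18s0076g00250 shows the opposite arrangement.

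The third family tested whether a change differed between the grapes, as an interaction in the same fit. Here more upwards and more downwards give the sign of that difference, Danfeng-2 minus Cabernet Sauvignon. They therefore include a smaller fall and a smaller rise in Danfeng-2. In the step from E-L 33 to E-L 34, 1 of 9 genes changed more upwards in Danfeng-2 (VIT_16s0022g00670, 1.10), beside 8.39% of all models, and 0 changed more downwards, beside 9.15%. Downwards, DESeq2 and limma also called 0, and the unadjusted p in edgeR gave 0 at 2-fold and 2 without a fold minimum. The call of VIT_16s0022g00670 was lost, at 0.99, without Cabernet Sauvignon E-L 34 replicate 3. Without Danfeng-2 E-L 33 replicate 1, SWEET10 was called as well (-1.80, adjusted p = 0.021). The count therefore ran from 0 to 2 over the libraries left out. In the step from E-L 34 to E-L 35, HT1, VIT_18s0076g00250 and VIT_16s0022g00670 changed more upwards in Danfeng-2, 3 of 9 beside 13.4%, and HT3, HT5, HT6 and VIT_18s0001g08210 more downwards, 4 of 9 beside 10.6%. Of these, VIT_16s0022g00670 fell in both grapes (-1.15 in Danfeng-2, -2.25 in Cabernet Sauvignon) and HT5 rose in both (3.26 and 6.31). In the step from E-L 35 to E-L 38, HT3, HT6, SWEET10 and both invertases changed more upwards, 5 of 9 beside 12.5%, and HT5 and VIT_18s0076g00250 more downwards, 2 of 9 beside 12.6%. For the whole span HT1 and both invertases changed more upwards, 3 of 9 beside 14.6%, and HT5 and VIT_18s0076g00250 more downwards, 2 of 9 beside 16%.

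The differences in these steps were as large as the changes themselves for several genes. HT6 differed by -2.58 ± 0.14 in the step to E-L 35 (adjusted p = 4.3e-11) and by 2.87 ± 0.14 in the step to E-L 38 (adjusted p = 1.6e-11). VIT_18s0076g00250 differed by 2.60 ± 0.19 (adjusted p = 4.1e-09) and then by -3.51 ± 0.20 (adjusted p = 1.5e-10). Both steps use the E-L 35 libraries of both grapes, so the opposite signs are not separate results. Over the span, HT5 differed by -5.57 ± 0.63 (adjusted p = 7.1e-07). The medians of the differences over the 9 genes were -0.31, -0.71, 1.03 and 0.14 from the first step to the whole span, beside -0.11, 0.04, -0.07 and -0.11 over all models.

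Levels of different genes were compared per length, as the FPKM values that the authors deposited. In green Cabernet Sauvignon skin the invertase VIT_16s0022g00670 led the list, with a mean of 968.1 FPKM at E-L 33, rank 76 of 27711 models. By E-L 38 it was at 36.8 FPKM, rank 4312, and HT6 (304.9 FPKM, rank 542) and SWEET10 (300.5 FPKM, rank 556) led instead. In Danfeng-2 VIT_16s0022g00670 led at the first 3 stages, with 243.2, 349.5 and 157.3 FPKM, and HT6 led at E-L 38 with 336.7 FPKM. The lead at E-L 35 rested on replicate 1, which stood apart from its partners. Without that library HT1 was ahead there, at a mean of 146.5 FPKM against 126.1 FPKM for VIT_16s0022g00670. HT5 reached 84.1 FPKM at E-L 35 in Cabernet Sauvignon, where only HT6, SWEET10 and VIT_16s0022g00670 of the list were higher, and was the lowest of the 9 genes at the other 3 stages there.

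Summed by class, both invertases together went from 1011.4 ± 13.3 FPKM (SD, n = 3) at E-L 33 to 86.7 ± 2.91 FPKM at E-L 38 in Cabernet Sauvignon, and from 298.5 ± 18.6 to 360.3 ± 14.3 FPKM in Danfeng-2. The 4 hexose transporters together went from 173.6 ± 1.48 to 388.5 ± 3.03 FPKM in Cabernet Sauvignon and from 276.7 ± 2.59 to 525.6 ± 12.8 FPKM in Danfeng-2. The pair of sucrose transporters went from 259.9 ± 7.92 to 129.5 ± 11.8 FPKM and from 165.1 ± 21.9 to 91.4 ± 2.44 FPKM. No test was run on these sums. FPKM was 1.05 to 1.17 times the count per model length and library total (before TMM scaling) in the median library for 7 genes, but 1.54 times for HT5 and 2.03 times for VIT_18s0001g08210. For the latter pair, comparisons with other genes per length depend on how the authors computed FPKM, which was not described in the sources used here.

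**Figure D4:**
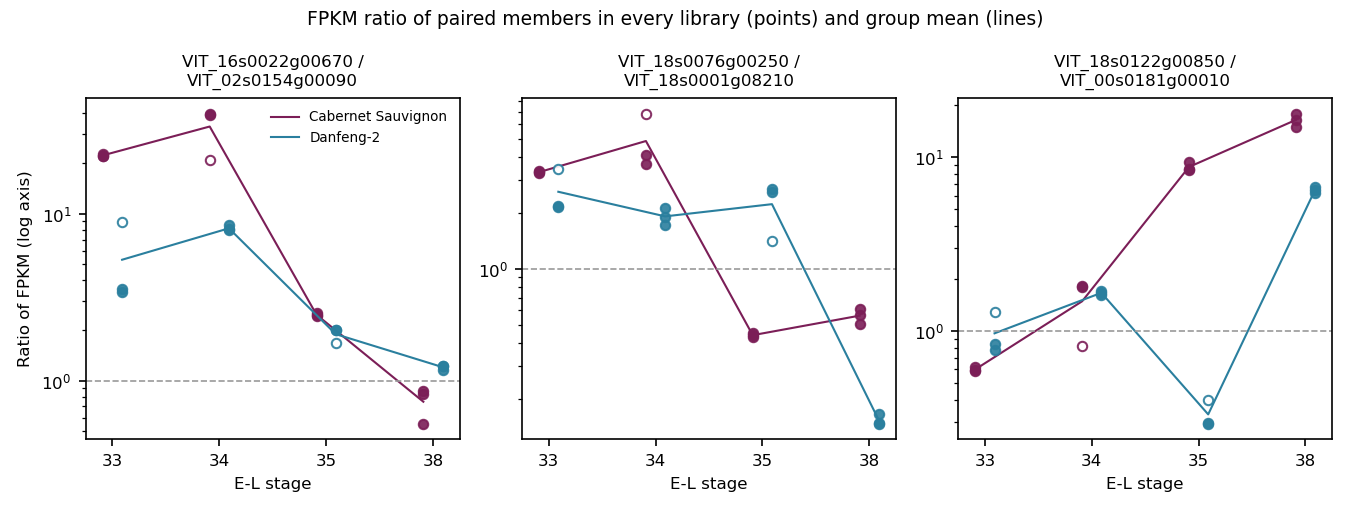
FPKM ratio (log axis) of the pair of invertases (left), the pair of sucrose transporters (middle) and HT6 to HT1 (right) against the E-L stage; points are libraries, open points the 3 libraries that stood apart, lines the group means, and the dashed line equal levels. Both invertase ratios came down towards 1, from 22.4 in Cabernet Sauvignon and 5.3 in Danfeng-2 at E-L 33 to 0.746 and 1.2 at E-L 38.

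The balance between paired genes shifted with stage in both grapes. VIT_16s0022g00670 exceeded the other invertase 22.4 ± 0.321-fold (SD, n = 3) at E-L 33, 33.3 ± 10.6-fold at E-L 34 and 2.48 ± 0.0633-fold at E-L 35 in Cabernet Sauvignon, and was below it at E-L 38 (0.746 ± 0.169). In Danfeng-2 the ratio was 5.3 ± 3.17, 8.17 ± 0.316, 1.9 ± 0.2 and 1.2 ± 0.038, so that VIT_16s0022g00670 remained ahead in all 12 libraries. At E-L 33 in Danfeng-2, replicate 1 gave 8.95 and the lowest replicate 3.4.

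The sucrose transporter VIT_18s0076g00250 exceeded VIT_18s0001g08210 at E-L 33 and E-L 34 in Cabernet Sauvignon (ratios 3.32 ± 0.0386 and 4.88 ± 1.72) and was below it at E-L 35 (0.44 ± 0.0118) and E-L 38 (0.56 ± 0.0498). In Danfeng-2 the ratio was 2.6 ± 0.747, 1.91 ± 0.203 and 2.23 ± 0.704 at the first 3 stages and 0.153 ± 0.00985 at E-L 38. Since FPKM of VIT_18s0001g08210 runs high against its counts, the ratios were also taken from counts divided by model length, a choice made after seeing the data. On that scale they were 6.32, 9.05, 0.81 ± 0.0244 and 1.05 ± 0.0506 from E-L 33 to E-L 38 in Cabernet Sauvignon and 4.62, 3.37, 4.24 and 0.294 ± 0.0172 in Danfeng-2. VIT_18s0076g00250 was then below its partner at E-L 35 but not at E-L 38 in Cabernet Sauvignon, and at E-L 38 alone in Danfeng-2. HT6 relative to HT1 went from 0.601 ± 0.0148 at E-L 33 to 1.48 ± 0.571, 8.78 ± 0.497 and 16.4 ± 1.38 in Cabernet Sauvignon. In Danfeng-2 it was 0.968 ± 0.271, 1.66 ± 0.0372, 0.331 ± 0.0626 and 6.47 ± 0.265, so HT1 was ahead of HT6 at E-L 35 there.

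Likeness of pattern was described by Pearson's r of log2(CPM + 1) over the 24 libraries, which share their 8 groups, so these values carry no p. Among the 9 genes the highest value was 0.87, between HT6 and the sucrose transporter VIT_18s0001g08210, and the lowest was -0.86, between HT6 and the sucrose transporter VIT_18s0076g00250. The invertases gave -0.36 with each other. Among all models tested, those most like HT6 were VIT_18s0001g11930 (0.985) and VIT_08s0056g00120 (0.98), and those most like VIT_18s0076g00250 were VIT_03s0017g01210 (0.98) and VIT_07s0031g01310 (0.961). VIT_02s0025g02250 (0.969) and VIT_05s0049g01410 (0.963) were most like SWEET10, VIT_06s0004g05220 (0.963) and VIT_16s0013g00240 (0.961) most like VIT_16s0022g00670, and VIT_00s2527g00010 (0.984) and VIT_00s0233g00010 (0.972) most like VIT_02s0154g00090. For HT1, HT3, HT5 and VIT_18s0001g08210 the best values were 0.901 (VIT_04s0008g07220), 0.943 (VIT_06s0004g07760), 0.938 (VIT_03s0063g00700) and 0.939 (VIT_04s0044g00030). None of the models closest to a gene of the list was itself on the list.

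No model overlapped any of the 9 genes in the file coordinates. Of their 18 next neighbours, 16 were tested, and the neighbours' r with the gene ran from -0.68 to 0.86. The highest were VIT_18s0001g08200 with the sucrose transporter VIT_18s0001g08210 (0.86, 2770 bp away) and VIT_17s0000g00820 with SWEET10 (0.85, 2333 bp away), and the lowest was VIT_18s0122g00860 with HT6 (-0.68, 1303 bp away). Whether reads were counted by strand was not stated in the sources used here.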

How the data were processed

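RNA of berry skin was read in 24 libraries, 8 groups of 3, with groups taken from the labels. TopHat2 was the aligner, per the submitters' processing notes. Its version, the genome build, the annotation, the counting program and any use of strand were not named in the sources used here. The authors deposited a count, an FPKM value and a Normalized value for each model, per the file headers. Deposited counts are whole numbers, 13201295 to 23095568 per library. The deposited Normalized signal, used only for this check, equals the count times 1 factor per library within 0.02 for 60.8% to 64.9% of counts above 0; a further 25.6% to 27.4% of counts lie about 1 above, so some counts may be estimates rounded up.

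The counts were fitted with edgeR 4.0.16 (R 4.3.3): filterByExpr (18375 models), TMM scaling and 1 quasi-likelihood fit of 8 groups to all 24 libraries (common biological coefficient of variation 0.2), 16 comparisons, Benjamini-Hochberg adjustment over all models. The step was tested on simulated counts. Alternatives were RLE size factors, no filter on low counts, no fold minimum, the replicate number as a block, limma 3.58.1 on the log2 of FPKM plus a pseudocount of 1 or 0.1, DESeq2 1.42.0, leaving out the 3 libraries that stood apart, and dropping every library once. Genes named in the text were all those of the list and, by a rule of this re-analysis, the models most like each in pattern over these libraries and their neighbours in the file coordinates. The genes, the rule, the comparisons and the 3 libraries were chosen with earlier results of these data known. RefSeq names came from a table of assembly ASM3070453v1, in which 0 of 27711 identifiers were found and which gave only the symbols named in the text.

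Same-numbered libraries of the compared groups did not deviate together: over 12 comparisons their correlations ran from -0.03 to 0.07, so the numbers were not taken as pairs.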

Additional observations from a re-analysis of the deposited data

Results flagged for a closer look

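For the following genes a test of the difference itself found that a change between stages differed between the grapes; values are log2, Danfeng-2 minus Cabernet Sauvignon, from edgeR. From E-L 33 to E-L 34 this held for the invertase VIT_16s0022g00670 (1.10 ± 0.24, adjusted p = 0.0015).

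From E-L 34 to E-L 35 it held for HT1 (VIT_00s0181g00010, 2.54 ± 0.24, adjusted p = 1.1e-07), HT3 (VIT_11s0149g00050, -1.08 ± 0.22, adjusted p = 0.0006) and HT5 (VIT_05s0020g03140, -3.05 ± 0.58, adjusted p = 0.00033). It also held for HT6 (VIT_18s0122g00850, -2.58), for the sucrose transporters VIT_18s0001g08210 (-1.10) and VIT_18s0076g00250 (2.60), and for VIT_16s0022g00670 (1.10, adjusted p = 0.0011). The values of HT3 (-0.84) and VIT_18s0001g08210 (-0.89) fell under 2-fold without Cabernet Sauvignon E-L 34 replicate 3, and that of VIT_16s0022g00670 (0.79) without Danfeng-2 E-L 35 replicate 1. HT3 also fell under 2-fold, at -0.95, without replicate 2 or replicate 3 of Danfeng-2 E-L 35. SWEET10 was not called in this step (-0.71) but was, at -2.03, without Danfeng-2 E-L 35 replicate 1 (adjusted p = 0.048). The invertase VIT_02s0154g00090 was not called either (-0.42) but was, at -1.0, with the 3 libraries that stood apart left out.

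From E-L 35 to E-L 38 it held for HT3 (1.32 ± 0.22, adjusted p = 7.8e-05), HT5 (-2.08 ± 0.57, adjusted p = 0.0061), HT6 (2.87), VIT_18s0076g00250 (-3.51) and VIT_16s0022g00670 (2.18 ± 0.24, adjusted p = 8.5e-07). SWEET10 (VIT_17s0000g00830) gave 2.69 ± 0.85 (adjusted p = 0.015), or 4.01 without Danfeng-2 E-L 35 replicate 1. The invertase VIT_02s0154g00090 gave 1.03 ± 0.40 (adjusted p = 0.043), and that call was lost without any 1 of 11 of its 12 libraries, at 0.85 to 1.09 with adjusted p of 0.057 to 0.11. The exception was Danfeng-2 E-L 35 replicate 1.

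Over the whole span it held for HT1 (1.82 ± 0.24, adjusted p = 4.2e-06), HT5 (-5.57), VIT_18s0076g00250 (-1.23 ± 0.19, adjusted p = 3e-05), VIT_16s0022g00670 (4.39) and VIT_02s0154g00090 (1.30 ± 0.40, adjusted p = 0.01). The last was 0.97, under 2-fold, without Danfeng-2 E-L 33 replicate 1.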

How the results depend on the processing

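Over the 9 genes and 16 comparisons there were 144 results, of which 70 were called, and no called result changed sign under any alternative run. RLE size factors and DESeq2 changed 0 of the 144 calls, no filter on low counts lost 1, and limma on either pseudocount lost 3 and gained 1. The replicate block lost 1 call, that of VIT_02s0154g00090 in the difference of the step from E-L 35 to E-L 38 (1.03, adjusted p = 0.058), and changed no other. Without the 3 libraries that stood apart, 4 calls were lost and 8 gained. Leaving out single libraries changed the call of 18 results, 12 of them called with all libraries. With no fold minimum, 28 calls were gained. The count then went from 5 to 8 for the grapes at E-L 34, from 1 to 5 and from 2 to 4 for the first and last steps in Cabernet Sauvignon, from 1 to 3 for the first step in Danfeng-2, and from 1 to 4 for the difference in the first step. Without the 3 libraries, these counts were 3 for the grapes at E-L 34 and 2 each for the first step in Cabernet Sauvignon, in Danfeng-2 and in their difference. In limma on either pseudocount, the first step in Danfeng-2 had 0 calls. Over the libraries left out in turn, the counts ran from 3 to 5 for the grapes at E-L 34, from 0 to 1 and from 1 to 2 for the first step in Cabernet Sauvignon and Danfeng-2, and from 0 to 2 for its difference. Over all models, dropping the fold minimum raised the count of calls 1.64 to 2.94 times in all 16 comparisons, and limma on log2(FPKM + 1) moved 2 of them by more than 1.5 times, from 1950 to 1182 and from 1893 to 1120. Of the 24 mean ratios between paired genes, counts per model length in place of FPKM, added after seeing the data, turned the order in 1, that of the sucrose transporters in Cabernet Sauvignon at E-L 38 (0.56 to 1.05). RLE moved the median of all models by at most 0.055. At 0.831 to 1.7 CPM, as for HT5 in Cabernet Sauvignon at E-L 34, depth limits the precision of a fold change.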
